A study of Homo sapiens with 18 samples.

Results

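Distal intergenic H3K4me1 regions of ZR751 breast cancer cells were the members described here. The 20000 peaks of largest signal in each of the 4 H3K4me1 libraries were merged where they overlapped by 1 bp or more, and a merged region was called distal when its midpoint lay outside every protein-coding gene and more than 10 kb from every protein-coding transcription start site (TSS) on hg19. This left 17936 distal regions of 43707 merged regions (41.0%, 95% Wilson interval 40.6 to 41.5%, which covers counting error only). The members were thus chosen by H3K4me1 signal, through its rank within each library, and by position. The other merged regions were 15824 gene-body regions (36.2%), which lay inside a protein-coding gene more than 10 kb from a TSS, and 9947 TSS-proximal regions (22.8%). Of positions spaced 1 kb apart over the genome, 49.4% were distal, 32.9% were gene-body and 17.6% were TSS-proximal.

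ZR751 (ZR75-1) is a long-used line of ER+ human breast cancer cells. For ZR751shMLL3, cells were stably transduced with a lentiviral short hairpin RNA against MLL3 (KMT2C), and for the ZR751shLucif control with one against luciferase. Both were sorted by flow cytometry for GFP and used at early passages, and the MLL3 knockdown (KD) rests on 1 hairpin sequence. H3K4me1, ERα and SP1 were measured by ChIP-seq and gene expression by RNA-seq, with 2 replicates per cell line and assay, and the study asked how MLL3 KD changes the enhancer landscape.

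MLL3 is a histone methyltransferase of the COMPASS-like complexes that place monomethyl groups on lysine 4 of histone H3. H3K4me1 marks enhancers, the regulatory DNA that lies at a distance from promoters and is bound by transcription factors. In luminal breast cancer cells, ERα binds largely at such distal sites, together with the pioneer factors FOXA1 and GATA3.

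The sequences of a few distal regions are shown on the plus strand of GRCh37 (hg19), 201 bp around a summit, because the results below turn on how the members share sequence motifs and ERα binding. Capitals mark exact matches, on either strand, to a full estrogen response element with a free spacer (its letters are the longest capitals in the ERα windows), the forkhead motif TGTTTAC, the GATA motif AGATAA, the AP-1 motif TGANTCA, the AP-2 motif GCCNNNGGC, the SP1 motif GGGCGG, the CTCF motif AGNGGGCGC or the GRHL motif AACCGGTT. The SP1 and CTCF motifs share letters and can overlap. The first 4 windows lie around the H3K4me1 summit of a region near DUSP10 found in all 4 libraries, of a region near PPP2R5A found in both ZR751shLucif libraries only, and of regions near C1orf53 and PEX5 found in both ZR751shMLL3 libraries only. They were picked for their GATA, AP-1 and forkhead matches. Of the 18 windows of the regions named for these 3 sets, 12 held no match.
DUSP10 region, chr1:222183147-222183347: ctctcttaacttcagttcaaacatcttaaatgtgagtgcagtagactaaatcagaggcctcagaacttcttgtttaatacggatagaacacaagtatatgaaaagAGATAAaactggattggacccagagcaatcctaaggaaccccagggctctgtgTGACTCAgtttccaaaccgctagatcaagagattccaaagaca
PPP2R5A region, chr1:212415905-212416105: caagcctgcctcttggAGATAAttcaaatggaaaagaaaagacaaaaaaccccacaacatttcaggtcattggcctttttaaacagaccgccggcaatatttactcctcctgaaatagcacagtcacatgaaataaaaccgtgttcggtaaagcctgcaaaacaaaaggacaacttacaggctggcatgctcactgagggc
C1orf53 region, chr1:197945705-197945905: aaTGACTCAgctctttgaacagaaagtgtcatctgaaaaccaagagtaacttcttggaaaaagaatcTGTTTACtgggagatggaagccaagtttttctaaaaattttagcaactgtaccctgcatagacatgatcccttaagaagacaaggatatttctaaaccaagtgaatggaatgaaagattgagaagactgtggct
PEX5 region, chr12:7418504-7418704: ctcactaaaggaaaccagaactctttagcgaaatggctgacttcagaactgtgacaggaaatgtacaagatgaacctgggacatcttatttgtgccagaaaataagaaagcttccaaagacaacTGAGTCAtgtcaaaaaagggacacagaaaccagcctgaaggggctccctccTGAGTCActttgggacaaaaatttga

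The next 7 windows lie around the summit of an ERα peak on a distal region that had an ERα peak in all 4 ERα libraries. Each holds a full estrogen response element, the inverted repeat to which the ERα dimer binds. They were picked for this element, which was in only 8 of the 23 such regions.
AHR region, chr7:17595967-17596167: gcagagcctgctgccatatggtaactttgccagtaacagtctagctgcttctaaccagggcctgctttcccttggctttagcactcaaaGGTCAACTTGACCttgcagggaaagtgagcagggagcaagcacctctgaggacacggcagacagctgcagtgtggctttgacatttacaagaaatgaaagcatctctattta
WNK1 region, chr12:834339-834539: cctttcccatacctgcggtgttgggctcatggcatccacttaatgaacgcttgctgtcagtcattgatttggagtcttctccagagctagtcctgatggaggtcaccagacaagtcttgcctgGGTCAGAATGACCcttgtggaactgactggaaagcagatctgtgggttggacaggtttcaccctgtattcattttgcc
ETNK1 region, chr12:23378782-23378982: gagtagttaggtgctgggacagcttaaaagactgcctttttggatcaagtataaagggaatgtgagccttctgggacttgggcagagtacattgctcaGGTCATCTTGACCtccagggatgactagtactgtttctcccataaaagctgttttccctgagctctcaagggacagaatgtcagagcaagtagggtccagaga
CDK1 region, chr10:62608495-62608695: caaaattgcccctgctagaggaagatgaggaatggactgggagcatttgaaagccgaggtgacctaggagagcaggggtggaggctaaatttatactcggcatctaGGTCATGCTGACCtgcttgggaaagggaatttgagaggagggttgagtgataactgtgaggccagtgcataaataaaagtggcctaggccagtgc
DCUN1D5 region, chr11:103423337-103423537: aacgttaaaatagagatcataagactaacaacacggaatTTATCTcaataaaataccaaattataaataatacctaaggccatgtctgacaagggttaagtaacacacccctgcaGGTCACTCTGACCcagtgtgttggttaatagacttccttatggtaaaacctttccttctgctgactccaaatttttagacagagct
SPRED2 region, chr2:65527407-65527607: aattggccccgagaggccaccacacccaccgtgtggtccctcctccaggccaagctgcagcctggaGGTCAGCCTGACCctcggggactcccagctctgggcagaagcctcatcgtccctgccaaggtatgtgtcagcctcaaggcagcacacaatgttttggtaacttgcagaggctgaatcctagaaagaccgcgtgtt
Chromosome 13 region with no expressed gene within 1 Mb, chr13:65788722-65788922: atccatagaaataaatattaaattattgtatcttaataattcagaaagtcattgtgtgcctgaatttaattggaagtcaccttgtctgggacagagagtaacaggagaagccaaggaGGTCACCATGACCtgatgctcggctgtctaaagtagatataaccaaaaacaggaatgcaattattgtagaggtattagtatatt

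Each ChIP-seq value was a peak signal from the SPP peak caller on a scale of its own list, so that peaks were ranked within a library and signals were not compared between libraries. At rank 20000 the H3K4me1 signal was 26.1 and 11.4 in replicates 1 and 2 of ZR751shLucif, and 10.6 in both ZR751shMLL3 libraries. The false discovery rate (FDR) at that rank was 7.5e-05 and 5.94e-05 in ZR751shLucif, and 0.00588 and 0.000225 in ZR751shMLL3. Median peak widths were 964, 900, 576 and 840 bp in the same order. The read depth behind single peaks is unknown from the files, and the input libraries were not analysed here. MLL3 itself (KMT2C) was at 2.34 and 6.77 FPKM (fragments per kilobase of transcript, scaled to library size) in ZR751shLucif and at 1.07 and 2.69 FPKM in ZR751shMLL3. Its log2 fold change was -1.02 ± 0.54 (SE, n = 2 against 2, limma adjusted p = 0.629), and the cell lines overlapped. All 8 luminal epithelial markers checked were expressed, with summed levels of 4944 to 12535 FPKM over the libraries. The 6 basal or mesenchymal markers (KRT5, KRT14, TP63, VIM, CDH2 and ZEB1) summed to 0.355 to 0.909 FPKM, and PTPRC, CD3E and PECAM1 were at 0.0469 FPKM or less. COL1A1, a fibroblast gene, was at 13.1 to 17.8 FPKM.

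Most distal regions were found in a single library. Of the 17936, 12473 (69.5%) were among the top peaks of 1 library, 3568 (19.9%) of 2, 1354 (7.55%) of 3 and 541 (3.02%) of all 4. These values chose the members and are given as a description. Each library gave 20000 peaks, so the counts per library below cannot show a fall or rise in total H3K4me1. The study reported far fewer H3K4me1 peaks after MLL3 KD, which they cannot test. ZR751shLucif replicates 1 and 2 held 6056 and 6104 distal regions, and ZR751shMLL3 replicates 1 and 2 held 6999 and 6676. Regions held by that library alone made up 39.4% and 44.2% of the ZR751shLucif regions and 56.5% and 51.5% of the ZR751shMLL3 regions. The ZR751shLucif pair shared 2229 distal regions, the ZR751shMLL3 pair shared 1681, and the pairs made of 1 library of each cell line shared 1582 to 1889. By this count, replicates of ZR751shMLL3 overlapped about as much as libraries of different cell lines. Median peak width was 576 bp in ZR751shMLL3 replicate 1 and 840 to 964 bp in the other libraries, and its part in these overlaps was not tested.

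**Figure D1:**
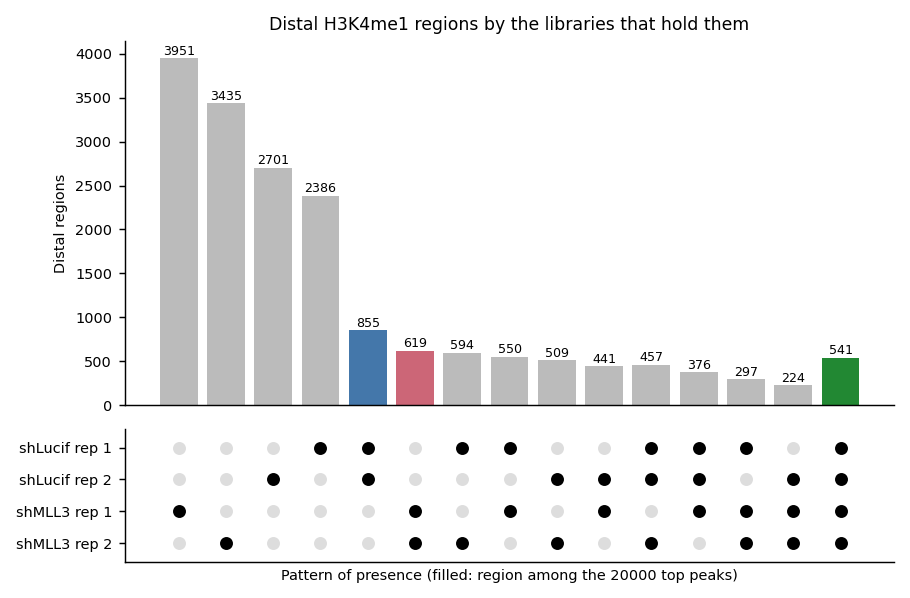
Number of distal regions (y axis) for each of the 15 patterns of presence among the 20000 top H3K4me1 peaks, with filled dots under a bar for the libraries that hold the regions. The 4 patterns of a single library are the tallest bars, at 2386 to 3951 regions, while 855 regions were in both ZR751shLucif libraries only (blue), 619 in both ZR751shMLL3 libraries only (red) and 541 in all 4 (green).

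Regions present in both libraries of 1 cell line and in neither of the other numbered 855 for ZR751shLucif and 619 for ZR751shMLL3. Absence from the top 20000 was seldom absence from the list. Of the 855 ZR751shLucif-only regions, 139 had no listed peak in ZR751shMLL3 replicate 1 and 106 had none in replicate 2. The others had median ranks of 71258.5 and 69586 there, and 10.9% and 60.6% of the 855 still held a peak at an FDR of 0.01. Of the 619 ZR751shMLL3-only regions, 62 and 109 had no listed peak in ZR751shLucif replicates 1 and 2, the median ranks were 65873 and 79456.5, and 72.7% and 71.2% held a peak at that FDR. When presence was any listed peak at an FDR of 0.01, 2112 distal regions were in both ZR751shLucif libraries only and 405 in both ZR751shMLL3 libraries only. The FDR at a given rank was higher in ZR751shMLL3 replicate 1 than in the other libraries, and its part in these counts was not tested.

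**Figure D2:**
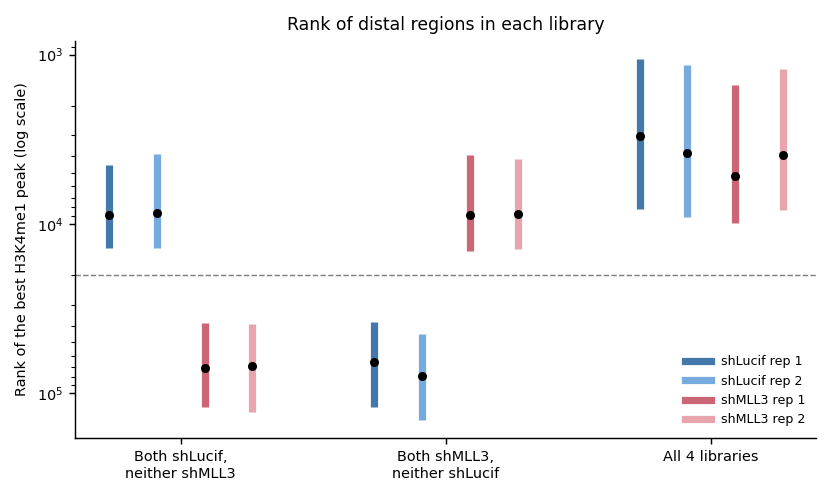
Rank of the best H3K4me1 peak on each distal region (y axis, log scale, best rank at the top) in each library, for the 855 regions of both ZR751shLucif libraries only, the 619 of both ZR751shMLL3 libraries only and the 541 of all 4. Dots are medians and bars run from the first to the last quartile of the listed peaks, with the dashed line at rank 20000. The absent libraries have medians between 65873 and 79456.5, and the regions of all 4 libraries have medians between 3031 and 5211.

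At the limit of the choice, members entered at rank 20000 of ZR751shLucif replicate 1 (chr4:101067939-101068902) and of ZR751shMLL3 replicate 1 (chr6:81319141-81319716), and the nearest region left out stood at rank 20001 of ZR751shMLL3 replicate 1, with a signal of 10.6.

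Among the regions of all 4 libraries, chr1:215711923-215713288 ranked 3, 8, 172 and 151 in ZR751shLucif replicates 1 and 2 and ZR751shMLL3 replicates 1 and 2. It lay 28.0 kb from the TSS of KCTD3, which was at 104, 91.6, 68.8 and 108 FPKM in the same order. A region of 3643 bp on chromosome 1, at 209548873 to 209552515, ranked 1, 625, 271 and 102 and had its midpoint in the long noncoding RNA gene LINC01698. The region at chr7:16943271-16944954 ranked 198, 307, 560 and 291 and lay 22.5 kb from AGR3, an anterior gradient protein expressed in luminal breast cancer, which was at 73.9, 164, 92.3 and 52.2 FPKM. The levels of KCTD3 and AGR3 overlapped between the cell lines.

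The ZR751shLucif-only region of lowest mean rank over both ZR751shLucif libraries, chr17:57921856-57923026, ranked 92 and 358 in ZR751shLucif and 64153 and 42440 in ZR751shMLL3, 45.9 kb from TUBD1. A further one, at chr17:48980592-48981854 in the antisense gene TOB1-AS1, ranked 394 and 449 against 33431 and 49030. It lay 35.9 kb from TOB1, an antiproliferative protein, whose level was 378 and 159 FPKM in ZR751shLucif and 97.6 and 104 FPKM in ZR751shMLL3. The TOB1 levels did not overlap, but the log2 fold change of -1.28 ± 0.44 (SE) did not pass limma's test (adjusted p = 0.599).

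GLUL, the glutamine synthetase gene, was the closest expressed gene of 53 distal regions, 35.7 to 575 kb away. Of these, 10 were ZR751shLucif-only, 1 was ZR751shMLL3-only and 7 were in all 4 libraries. Its level was 291 and 193 FPKM in ZR751shLucif and 102 and 68.8 FPKM in ZR751shMLL3, without overlap (log2 fold change -1.50 ± 0.35, SE, limma adjusted p = 0.453). GLUL lies on the long arm of chromosome 1, where 146 distal regions were ZR751shLucif-only and 85 ZR751shMLL3-only. With its own peak lists and assignment rule, the study assigned more H3K4me1 peaks to GLUL after MLL3 KD.

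Of the ZR751shMLL3-only regions, chr1:218702066-218703172 ranked 245 and 433 in ZR751shMLL3 and 20680 and 119137 in ZR751shLucif. The PEX5 region shown above, chr12:7418316-7419344, ranked 875 and 1118 in ZR751shMLL3 and 26581 and 100509 in ZR751shLucif. The gene PEX5, the import receptor of peroxisomes, lay 75.4 kb away and was at 26.7 and 23.0 FPKM in ZR751shLucif and 31.2 and 36.5 FPKM in ZR751shMLL3. These levels did not overlap, and the difference did not pass the test (limma adjusted p = 0.65).

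Distal regions lay more than 10 kb from a TSS by the rule that chose them, and were unevenly spread over the genome. The median distance to a protein-coding TSS was 157 kb (quartiles 54.2 and 414 kb), and 11043 regions (61.6%) were more than 100 kb away. The midpoint of 33.1% was inside a long noncoding RNA gene. These distances and this share were not compared with other distal positions of the genome. The long arm of chromosome 1 (1q) held 1955 distal regions (10.9%) on 3.38% of the distal sequence, or 41.3 per Mb against 12.8 per Mb over all arms. It held 256 of the 541 regions found in all 4 libraries (47.3%). On 1q, 13.1% of distal regions were in all 4 libraries, and on the other arms together 1.78% were. The next densest arms, 12p and 7p, held 32.2 and 27.4 distal regions per Mb, and 34 and 62 of the 541. The densest Mb, chr1:191000001-192000000, held 106 distal regions, of which the libraries held 50 to 58 each.

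The weight of 1q was common to all assays. It made up 46.7% and 40.6% of the 2000 H3K4me1 peaks of largest signal in ZR751shLucif, and 31.5% and 31.1% in ZR751shMLL3, against 3.70% of the genome. Of the 2000 top peaks, 1q held 6.25 to 20.7% in the ERα libraries and 12.0 to 26.0% in the SP1 libraries. The overlaps of regions found in all 4 libraries are therefore also given without 1q.

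Motif matches around the H3K4me1 summits were compared with windows of the same length 5 kb away. The 95% intervals of the ratios treat all windows as independent, without the pairing of region and flank. They cover counting error only. In 501-bp windows the forkhead motif was in 14.4% of distal regions and 8.16% of flanks, a ratio of 1.77 (95% interval 1.66 to 1.88). The GATA motif was in 42.4% and 35.9%, a ratio of 1.18 (1.15 to 1.21). The AP-1 motif was in 19.9% and 16.1% (ratio 1.24, 1.19 to 1.30), and the AP-2 motif, bound by the TFAP2 factors of the luminal lineage, in 7.22% and 5.69% (ratio 1.27, 1.17 to 1.37). The motif of SP1, a factor of GC-rich promoters, went the other way, at 2.40% of distal regions and 4.06% of flanks (ratio 0.591, 0.525 to 0.664).

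The full estrogen response element was rare at the H3K4me1 summits, at 0.0781% of distal regions and 0.0558% of flanks, as were the CTCF (0.0948% and 0.156%) and GRHL (0.0836% and 0.0335%) motifs, and the intervals of their ratios included 1. With 500 bp on each side the ratio was 2.13 (1.17 to 3.85) for the estrogen response element and 2.80 (1.55 to 5.05) for GRHL, whose intervals did not include 1. These matches are a description of letters in a window. Distal windows were also richer in A and T, with a median GC content of 36.9% against 38.7% in the flanks, and the part of base composition in the ratios was not tested. Gene-body regions held the motifs at similar shares (forkhead 14.8%, GATA 41.3%), and TSS-proximal regions at 13.0% and 37.0%, with 4.84% for the SP1 motif.

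ERα binding, which the choice of members did not use, covered few distal regions. The 20000 top ERα peaks overlapped 1.91% (343) and 5.56% (998) of distal regions in replicates 1 and 2 of ZR751shLucif, with 3.46% (620) and 1.44% (259) for ZR751shMLL3. The means were 3.74% ± 2.58 and 2.45% ± 1.42 (SD, n = 2), and the difference of -1.29 percentage points gave p = 0.667 when cell line labels were permuted over the libraries (exact, two-sided). With 2 libraries against 2 the smallest p this test can give is 0.333. Without ZR751shLucif replicate 2, which had the highest share, the difference was 0.538 points (exact permutation p = 1). With the 5000 top ERα peaks it was -0.530 points, with the 50000 top peaks -2.37 points and with all peaks at an FDR of 0.01 -3.32 points. The lists at that FDR held 98579 and 3797 peaks in ZR751shLucif and 764 and 31912 in ZR751shMLL3. The last value therefore compares lists of very unequal length. Median ERα peak widths were 204, 476, 620 and 310 bp in the same order of libraries. The p-values over libraries measure only the spread between these replicates.

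Within libraries, the ERα share of distal regions was close to that of TSS-proximal regions, with a mean difference of 0.370 percentage points that was positive in 2 of 4 libraries (two-sided exact sign-flip permutation p = 0.5). For regions with H3K4me1 in all 4 libraries, the ERα share was 6.65%, 21.3%, 10.9% and 2.59%, which was higher in 4 of 4 libraries than the 1.50%, 3.74%, 2.71% and 1.27% of regions of 1 library. The mean difference was 8.04 points with an exact sign-flip permutation p of 0.125, the smallest that 4 libraries allow. Regions of 4 libraries were also wider, with a median of 1624 bp against 840 bp. When an ERα summit had to fall in the same 501-bp window of each region, a setting chosen after seeing the data, the difference was 1.69 points, positive in 3 of 4 libraries (exact sign-flip permutation p = 0.25). Without 1q it was 6.21 points.

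The ERα share of the 541 regions in all 4 libraries was 3.50 points above that of TSS-proximal regions in all 4 libraries, in 4 of 4 ERα libraries (exact sign-flip permutation p = 0.125). With the fixed window it was 0.511 points, in 3 of 4 (p = 0.375 in the same exact test), and without 1q it was 1.48 points, in 4 of 4.

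SP1 peaks overlapped 2.01% and 1.33% of distal regions in ZR751shLucif and 2.02% and 3.40% in ZR751shMLL3. The difference of 1.05 points between the cell lines had an exact permutation p of 0.333, and the cell lines did not overlap, although replicate 1 of each differed little. Median SP1 peak widths were 360 and 216 bp in ZR751shLucif and 280 and 500 bp in ZR751shMLL3. With an SP1 summit required in the fixed 501-bp window, the difference was 0.181 points (exact permutation p = 0.667). With the 5000 top SP1 peaks the difference was -0.0502 points. At an FDR of 0.01 the ZR751shLucif SP1 lists held 0 and 0 peaks and the ZR751shMLL3 lists 204178 and 12065. The SP1 share was lower in distal than in TSS-proximal regions in 3 of 4 libraries, by 0.756 points on average (-0.756, exact sign-flip permutation p = 0.25). This was largest in ZR751shMLL3 replicate 2, at 3.40% against 5.71%. With the fixed window the mean difference between these classes was -0.0774 points (exact sign-flip permutation p = 0.25). Of the 17936 distal regions, 91.8% had no top SP1 peak in any library and 1 had one in all 4.

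**Figure D3:**
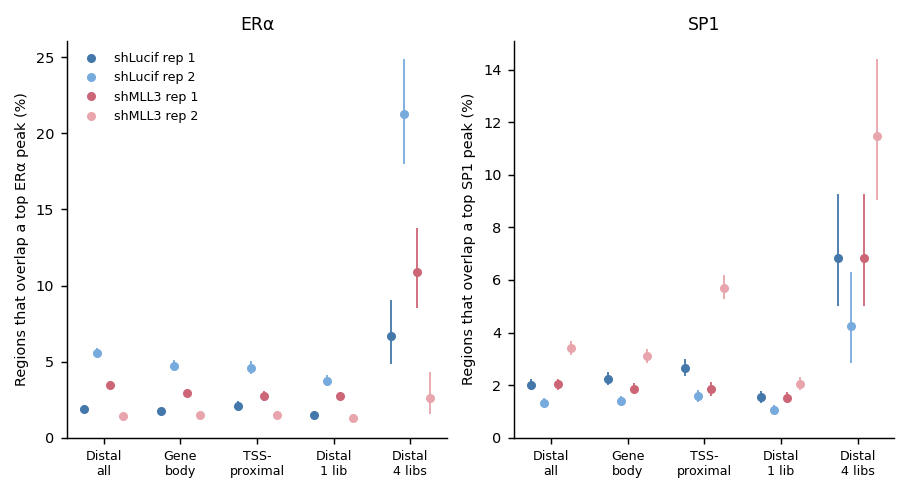
Share of H3K4me1 regions (y axis, percent) that overlapped 1 of the 20000 top ERα (left) or SP1 (right) peaks, for all distal, gene-body and TSS-proximal regions and for distal regions of 1 and of 4 H3K4me1 libraries. Each point is a library of the factor and its bar the 95% Wilson interval, which covers counting error only. The ERα points of the 4-library regions run from 2.59 to 21.3%, and those of all distal regions from 1.44 to 5.56%.

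ERα binding on distal regions was seldom shared between libraries, and the estrogen response element was more frequent at the shared sites. No top ERα peak was found on 89.4% of distal regions. A peak in 1 ERα library was found on 1659, in 2 on 176, in 3 on 39 and in all 4 on 23. In windows of 201 bp around the best-ranked ERα summit, the full estrogen response element was present in 5 of the 1659 regions (0.301%, 95% Wilson interval 0.129 to 0.704%), in 19 of the 215 regions of 2 or 3 libraries (8.84%, 5.73 to 13.4%) and in 8 of the 23 of all 4 libraries (34.8%, 18.8 to 55.1%). The windows 5 kb away held 1 match for the 1659 regions (0.0603%), 0 of 215, which allows a share of up to 1.40%, and 0 of 23, which allows up to 13.0%. Windows of this length at the H3K4me1 summit of all merged regions held it in 0.0320%. This count was made after the ERα overlaps were seen. It is a count of regions, and 2 neighbouring regions near MEX3C among the 23 shared the same ERα summit. Some summits, such as that of the SPRED2 region, lay just outside the H3K4me1 region that the ERα peak overlapped.

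The same order was found in the other classes, with the element in 0.296%, 8.78% and 23.1% (3 of 13) of gene-body regions and in 0.232%, 3.26% and 42.9% (3 of 7) of TSS-proximal regions with ERα in 1, in 2 or 3 and in all 4 libraries. Forkhead matches at distal ERα summits were in 5.73%, 6.51% and 8.70% of regions in that order, against 3.07%, 3.72% and 4.35% in the flanks. GATA matches were in 23.3%, 23.7% and 21.7%, against 17.4%, 15.3% and 17.4%. The intervals of these shares overlapped between the 3 groups of regions.

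**Figure D4:**
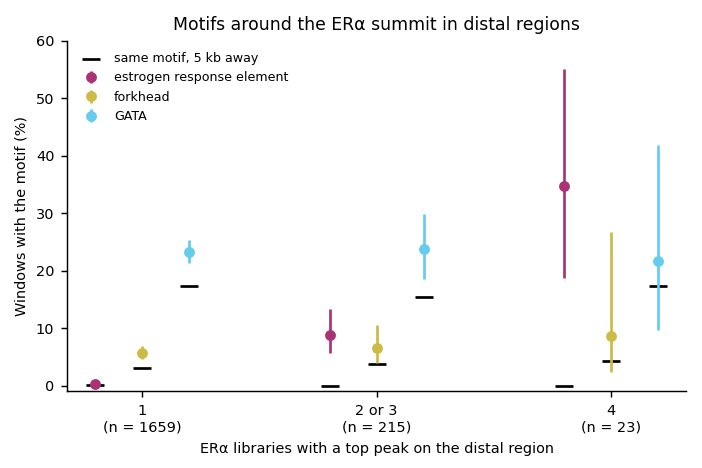
Share of 201-bp windows around the best-ranked ERα summit that held a motif (y axis, percent), for distal regions with a top ERα peak in 1, in 2 or 3 and in 4 ERα libraries. Points are shares with 95% Wilson intervals and black dashes are windows 5 kb away. The estrogen response element goes from 0.301% through 8.84% to 34.8%, and forkhead and GATA matches stay within overlapping intervals.

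The region near AHR, the aryl hydrocarbon receptor gene, was among the 23. It spanned chr7:17595309-17598671, with its midpoint in the long noncoding RNA gene LINC02889, and ranked 44, 115, 10 and 11 for ERα and 357, 562, 221 and 1456 for H3K4me1 in the usual order of libraries. It was thus high in every library of both assays. The region at chr12:833304-835499, whose closest expressed TSS was that of WNK1, ranked 48, 199, 268 and 5405 for ERα and was also in all 4 H3K4me1 libraries. H3K4me1 was less constant at others. The chromosome 13 region ranked 43, 65, 17 and 4 for ERα but 89064, 14209 and 143545 for H3K4me1 in ZR751shLucif replicates 1 and 2 and ZR751shMLL3 replicate 2, with no listed peak in ZR751shMLL3 replicate 1. The region near TPBG, chr6:83278530-83279840, ranked 3, 4, 6 and 14 for ERα, 16202 and 462 for H3K4me1 in ZR751shLucif, 166771 in ZR751shMLL3 replicate 1, and was not listed in replicate 2. TPBG was at 37.0 and 40.1 FPKM in ZR751shLucif and 43.9 and 31.1 FPKM in ZR751shMLL3.

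Genes of the luminal and estrogen-responsive list differed widely in their number of distal regions. Of the 24 genes of the list, 17 were the closest expressed gene of 169 distal regions, with a median of 6 per gene (1 to 35), beside a median of 3 over all closest genes. Of the 169, 119 were in 1 library and 5 in all 4. The ZR751shLucif libraries held 53 and 50 of them and the ZR751shMLL3 libraries 71 and 69. A top ERα peak in any library was found on 17.2% of the 169, beside 10.6% of all distal regions. GATA3, a pioneer factor of the luminal lineage, had 35 regions, all 332 to 981 kb away, with 7 and 8 in ZR751shLucif and 16 and 13 in ZR751shMLL3. TFAP2A had 24, the progesterone receptor gene PGR 22, TFAP2C 17 and the cyclin D1 gene CCND1 15. ESR1, the ERα gene, had 2, both in ZR751shMLL3 replicate 2 alone, and FOXA1 had 4.

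XBP1, a transcription factor of the unfolded protein response that is high in ER+ tumours, had 6 distal regions within 12.2 to 24.0 kb of its TSS. Top ERα peaks lay on 4 of them, all in ZR751shLucif replicate 2, where their best ranks were 529, 345, 189 and 506, and on 3 of them also in ZR751shMLL3 replicate 1, at ranks 142, 7822 and 401. The region chr22:29217553-29218931 was in all 4 H3K4me1 libraries, at ranks 944, 1265, 11251 and 585. XBP1 was at 1302 and 1507 FPKM in ZR751shLucif and 1207 and 1112 FPKM in ZR751shMLL3, which did not overlap and did not pass the test (limma adjusted p = 0.747).

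Near PGR, the region chr11:101311512-101312559 ranked 125540 and 153289 for H3K4me1 in ZR751shLucif and 1365 and 9501 in ZR751shMLL3. For ERα it ranked 152382 and 262 in ZR751shLucif and 470 and 58 in ZR751shMLL3. ERα was therefore also high in 1 ZR751shLucif library. PGR was at 17.3 and 13.6 FPKM in ZR751shLucif and 10.8 and 9.33 FPKM in ZR751shMLL3 (limma adjusted p = 0.629). Near CCND1, the region chr11:69338643-69340084 was in all 4 H3K4me1 libraries at ranks 5084, 355, 11944 and 9854. The region chr11:69329088-69330051 had ERα ranks of 107 in ZR751shLucif replicate 2 and 76 in ZR751shMLL3 replicate 1, and no listed ERα peak in the other 2 libraries. CCND1 was at 314 and 207 FPKM in ZR751shLucif and 270 and 279 FPKM in ZR751shMLL3. The 6 regions of MYB were each in a single library, and MYB was at 8.82 and 9.51 FPKM in ZR751shLucif and 4.32 and 4.84 FPKM in ZR751shMLL3. These levels did not overlap, and the log2 fold change of -0.93 ± 0.26 (SE) did not pass limma's test (adjusted p = 0.513).

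The closest expressed protein-coding gene was found within 1 Mb for 14567 distal regions, at a median of 188 kb, and 3369 had none. They named 2636 genes of 10246 candidates. Of these genes 887 had 1 distal region, and BRINP3 had the most with 102, and DUSP10, a MAP kinase phosphatase gene, had 82. BRINP3 was at 84.3 and 97.6 FPKM in ZR751shLucif and 67.1 and 107 FPKM in ZR751shMLL3, and the cell lines overlapped. RNA is from bulk cells, so that fewer cells of a type and less RNA per cell cannot be told apart.

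None of the 2636 closest genes passed limma's test at an adjusted p of 0.05, with 0 higher and 0 lower in ZR751shMLL3, where of all 11134 genes tested 0% were called higher and 0.00898% lower. At an unadjusted p of 0.05, 76 (2.88%) were higher and 220 (8.35%) lower, beside 3.67% and 4.31% of all genes tested. Levels without overlap between the cell lines were found for 277 of these genes in the higher direction in ZR751shMLL3 (10.5%) and for 1003 in the lower (38.1%), beside 17.6% and 25.3% of all genes tested. The median log2 fold change of the closest genes was -0.25, with 730 above 0 and 1906 below, and that of all genes was -0.10. The median of the 7610 candidates that were closest to no distal region was -0.04.

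The medians were close to each other whichever cell line carried the mark. Genes closest to ZR751shLucif-only regions (483 genes) had a median log2 fold change of -0.29, those closest to ZR751shMLL3-only regions (390 genes) -0.27 and those closest to regions of all 4 libraries (241 genes) -0.29. These sets share genes. Without the 143 genes found in both 1-cell-line sets, the medians were -0.29 (340 genes) and -0.26 (247 genes). Of these, 46.8% and 34.8% were lower in ZR751shMLL3 without overlap, beside 25.3% of all genes tested. In the higher direction 9.41% and 11.3% did not overlap, beside 17.6% of all genes tested. The difference between these sets was not tested. Genes closest to a gene-body region had a median of -0.21 and genes closest to a TSS-proximal region -0.19. With the number of distal regions per gene the median went from -0.19 for 1 region through -0.26 for 2 to 5 and -0.29 for 6 to 20 to -0.36 for the 125 genes with 21 or more.

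Transcript GC content differed between the same sets of genes, and its part in their lower medians was not tested. The median GC content of the transcripts was 43.2% for the genes closest to a distal region and 51.8% for those closest to none. Within 5 equal groups of the candidate genes by GC content, the medians of the genes closest to a distal region and of the others were -0.37 and -0.37 in the lowest group, -0.28 and -0.24 in the next, -0.15 and -0.11 in the middle, 0.01 and 0.09 in the one above, and 0.21 and 0.25 in the highest. With the trend on GC content removed from each library, which was chosen after seeing the data, the median was -0.02 for the genes closest to a distal region and 0.00 for those closest to none. It was then -0.03 for genes of ZR751shLucif-only regions, 0.00 for ZR751shMLL3-only regions and -0.07 for regions of all 4 libraries. By the number of distal regions per gene it was -0.0027 for 1, -0.019 for 2 to 5, -0.015 for 6 to 20 and -0.12 for 21 or more. Removing the trend also takes away any other change that follows GC content, so these values do not give a cause.

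**Figure D5:**
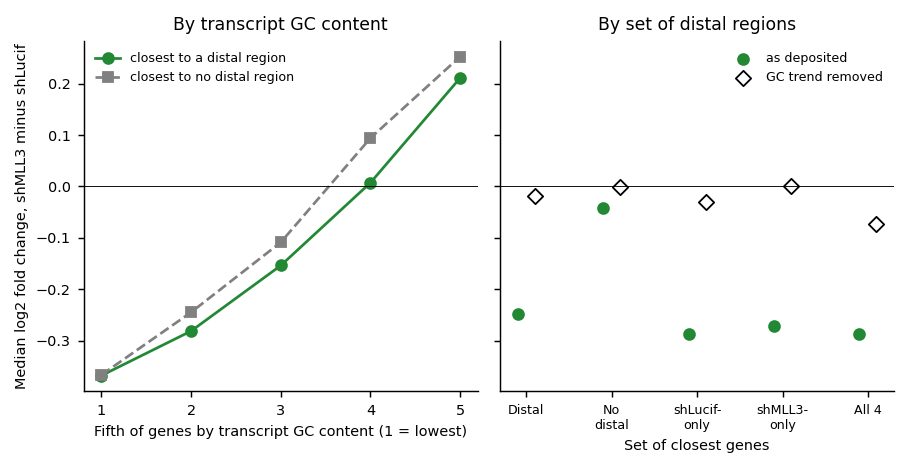
Median log2 fold change (y axis, ZR751shMLL3 minus ZR751shLucif) of genes closest to a distal H3K4me1 region, against the others within 5 groups by transcript GC content (left) and by set of regions, as deposited and with the GC trend removed (right). On the left both lines climb from -0.37 in the lowest group to 0.21 and 0.25 in the highest, and on the right the sets of distal regions move from -0.25 to -0.29 to values between -0.07 and 0.00.

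Single closest genes differed by more than these medians, although none passed the adjusted p. Among those named for lower levels in ZR751shMLL3 without overlap were MUCL1, MGP, BPIFB1 and CXCL17. MUCL1, a small breast mucin gene with 7 distal regions 73.9 to 305 kb away, was at 570 and 282 FPKM in ZR751shLucif and 8.21 and 17.7 FPKM in ZR751shMLL3, a log2 fold change of -5.00 ± 0.49 (SE, limma adjusted p = 0.148). MGP, the matrix Gla protein gene, was at 858 and 173 against 12.3 and 28.3 FPKM (-4.33 ± 0.77).

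Those named for higher levels in ZR751shMLL3 included CGA, CBLN2, NDRG1, IGFBP3 and TMTC1. CGA, the common alpha subunit of the glycoprotein hormones, was at 6.17 and 5.53 FPKM in ZR751shLucif and 79.4 and 37.6 FPKM in ZR751shMLL3 (3.12 ± 0.40, limma adjusted p = 0.231). CBLN2 was at 4.65 and 2.85 against 37.0 and 34.2 FPKM (3.12 ± 0.31, limma adjusted p = 0.148). It had 45 distal regions, of which 4 were ZR751shLucif-only and 1 was ZR751shMLL3-only. TMTC1 was at 11.7 and 9.65 against 39.8 and 62.4 FPKM (2.18 ± 0.32), with 2 ZR751shMLL3-only regions among its 7. The genes named here for lower or higher levels kept their direction in every fit run. Their calls depended on the fit. Each passed an adjusted p of 0.05 with 1 surrogate variable, where 2.15% and 2.10% of all genes were called higher and lower. That variable was taken from the residuals of the same libraries, which narrows the spread the test uses. These calls are therefore no separate support for the genes.

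The genes of the enhancer machinery had few distal regions of their own. Of the 24 listed, 21 were tested, 0 were called, and 0 had an unadjusted p under 0.05, with a median log2 fold change of -0.03. They were the closest genes of 10 distal regions in all, at ASH2L (3), KDM5B (3), KDM6A (2), WDR5 (1) and KDM5A (1). ASH2L, a core subunit of the COMPASS complexes, was at 63.7 and 63.3 FPKM in ZR751shLucif and 50.4 and 49.1 FPKM in ZR751shMLL3, without overlap (limma adjusted p = 0.685). KMT2D, the gene of the related methyltransferase MLL4, was at 2.24 and 8.02 against 6.74 and 9.99 FPKM, with overlap. KDM6A, an H3K27 demethylase of the same complexes, was at 6.16 and 5.95 against 4.68 and 5.61 FPKM, without overlap (limma adjusted p = 0.791). In all, 2 of the 21 were higher and 6 lower in ZR751shMLL3 without overlap, beside 17.6% and 25.3% of all genes. The 2 that were higher were KMT2B, at 6.80 and 8.56 against 11.6 and 10.8 FPKM, and KDM5C, at 20.6 and 24.7 against 34.6 and 30.3 FPKM (limma adjusted p = 0.629 for both). Of the luminal and estrogen-responsive list, 22 were tested, 0 were called at the adjusted p, 0 were higher and 2 (MYB and PDZK1) lower at an unadjusted p of 0.05, and the median was -0.25. Of all genes tested, 3.67% were higher and 4.31% lower at that p, and the median was -0.10.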

How the data were processed

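H3K4me1, ERα and SP1 ChIP-seq and RNA-seq were available for ZR751shLucif and ZR751shMLL3 cells, with 2 replicates each. Per the submitters' processing notes, the tools included BWA 0.7.5a-r405, TopHat2 2.0.13 and Cuffnorm 2.2.1, on hg19. The deposited peak lists give the SPP signal and the −log10 of the FDR per peak, for each library apart. The authors deposited FPKM per gene, without counts.

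The members and gene lists were chosen with earlier results of these data known. Regions were annotated with GENCODE v44 lifted to GRCh37 and sequences were read from that genome. The closest expressed gene was sought within 1 Mb. Expression was tested with limma 3.58.1 (R 4.3.3) on log2(FPKM + 0.5), over the 11134 genes whose mean was above 1, and p-values were adjusted by Benjamini-Hochberg. Fold changes are on that scale and understate changes of low genes. Overlaps were tested over libraries with exact permutations (Python 3.11.15). The fits were tested on simulated data. Genes were named by their closest regions, their fold changes and the lists, and the regions near XBP1, PGR and CCND1 were chosen after their values were seen. The ERα summit windows, the fixed 501-bp window, the fits without 1q and the GC trend (loess span 0.3, known for 92.0% of genes tested) were added after seeing the data. The RNA table's entry with no gene name was left out. Results for some genes that the naming rule picked are not reported here.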

Additional observations from a re-analysis of the deposited data

How the results depend on the processing

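With 10000 top peaks per library there were 9716 distal regions, of which 433 were ZR751shLucif-only and 290 ZR751shMLL3-only, and with 50000 there were 37863, 1929 and 1524. Outside genes of every biotype there were 11822 (27.0% of merged regions), 547 and 390. With presence at an FDR of 0.01, 2112 were ZR751shLucif-only and 405 ZR751shMLL3-only. The distal share was 42.8% at 5 kb and 31.5% at 50 kb from a TSS, and 40.3 to 41.6% leaving out each library. The ERα difference between the cell lines ran from -3.11 to 0.538 points leaving out each library, and turned without ZR751shLucif replicate 2. The SP1 difference was -0.0502 points with 5000 top peaks and 8.29 points at an FDR of 0.01. At that FDR both ZR751shLucif SP1 lists were empty, so this difference could not be negative and is no comparison of the cell lines. In windows of 500 bp on each side, the estrogen response element and GRHL ratios were 2.13 and 2.80.

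Closest genes called higher and lower numbered 45 (1.71%) and 108 (4.10%) with 1 surrogate variable, beside 2.15% and 2.10% of all genes. Leaving out each library gave 0 to 56 and 0 to 275, with the highest counts without ZR751shLucif replicate 2 (2.12% and 10.4%, beside 3.17% and 8.23%), where the lone control library is assumed to vary like the others. The cause was not tested. Same-numbered RNA libraries share only a number (correlation of deviations 0.0374), and the replicate block gave 3 higher (0.114%) and 14 lower (0.531%), beside 0.126% and 0.171% of all genes. With no filter on low values the median was -0.12 for all closest genes and -0.092 for those of ZR751shMLL3-only regions. With the GC trend removed the medians were -0.018, -0.030 for ZR751shLucif-only and 0.0012 for ZR751shMLL3-only regions. In windows of 100 and 500 bp on each side the forkhead ratio was 1.92 and 1.60 and the GATA ratio 1.22 and 1.13, and the SP1 motif ratio was 0.665 at 500 bp. Depth per peak is unknown, and with 2 libraries per cell line the permutation tests cannot pass 0.05.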
